A study of Mus musculus with 18 samples.

Results

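The genes described here encode the enzymes, transporters and binding proteins of fatty acid oxidation and ketone body metabolism, measured in the livers of 18 male C57BL/6J mice. They were chosen by symbol from a list of mitochondrial and peroxisomal beta oxidation, fatty acid uptake and ketogenesis genes, and 48 of the 55487 genes in the count table carried a symbol on that list. Every mouse had received an adeno-associated virus of serotype AAV8 with the hepatocyte promoter TBG, injected at about 8 weeks of age and 1 week before the diets began. CON-GFP mice carried GFP and ate a purified control diet. FPC-GFP mice carried GFP and ate the FPC diet, which adds fructose, palmitate and cholesterol to a high-fat diet and was given with water containing fructose and glucose. FPC-LIPA mice ate the FPC diet and carried human LIPA, the gene of lysosomal acid lipase (LAL), an enzyme that releases fatty acids and cholesterol from lipids in the lysosome. Each group held 6 mice with 1 library per mouse, and livers were taken once the diets had run for 16 weeks, following a fast of 4 h. No mouse was free of virus and no liver of a LIPA mouse on the control diet was analysed here, so the effects of the vector itself and of LIPA without the FPC diet were not measured.

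Fatty acids that enter the hepatocyte are bound by FABP proteins, activated to acyl-CoA by synthetases such as ACSL1, and carried into mitochondria by the carnitine shuttle of CPT1A, SLC25A20 and CPT2. Mitochondrial beta oxidation then shortens them to acetyl-CoA, which the liver turns into ketone bodies during fasting. Peroxisomes shorten very long-chain, branched and dicarboxylic fatty acids with their own set of oxidases, bifunctional enzymes and thiolases, and many genes of both organelles are targets of the nuclear receptor PPARalpha.

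The libraries held from 16632146 to 37739301 counts. The 6 FPC-LIPA libraries were not alike. In FPC-LIPA 36, 37 and 39 the mRNAs of 70 cytosolic ribosomal protein genes took from 5.75% to 7.37% of all counts, against 1.85% to 2.54% in FPC-LIPA 31, 33 and 34 and 1.22% to 2.18% in the 12 GFP libraries. FPC-LIPA 37 also carried a sample sheet number far above those of the others, which lay between 55 and 80. Its title gives the mouse as 37b, the only one with a letter, and the labels do not say what the letter means. The FPC-LIPA fits were therefore made with all 6 libraries and with FPC-LIPA 31, 33 and 34 alone. The transgene is human and was not counted here. Mouse Lipa, at 336 ± 59.3 CPM (counts scaled to a common library size, SD, n = 6) in FPC-GFP and 300 ± 44.8 CPM in FPC-LIPA, therefore does not check the LIPA label. The hepatocyte marker Alb lay between 31072 and 70872 CPM in every liver, so the tissue label was matched by its defining marker. In bulk RNA, fewer cells of a type and less RNA per cell cannot be told apart.

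All 48 genes were well above the floor of 3 counts in every library, and all 48 passed the filter on low counts in both comparisons. Together they took 2.65% to 3.07% of the counts in CON-GFP, 3.04% to 3.62% in FPC-GFP and 2.97% to 3.36% in FPC-LIPA. Their levels spanned a wide range when divided by transcript length. Fabp1, the liver fatty acid binding protein, was the most abundant at a mean of 14366 CPM per kilobase over the 18 livers. It was followed by the peroxisomal thiolase Acaa1b at 1822 CPM per kilobase, the sterol carrier Scp2 at 1385 CPM per kilobase and the mitochondrial thiolase Acaa2 at 678 CPM per kilobase. The coactivator Ppargc1a, which drives transcription of oxidative genes, was the least abundant at 0.913 CPM per kilobase. Among the carnitine shuttle genes, Slc25a20 lay at 118, Cpt1a at 92.6 and Cpt2 at 82.6 CPM per kilobase.

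The genes also differed in how much they varied between mice of a group. The median SD of log2 CPM was 0.28 in CON-GFP, 0.19 in FPC-GFP and 0.41 in FPC-LIPA, and 9, 5 and 19 of the 48 genes respectively had an SD over 0.5. The most variable gene was the peroxisomal thioesterase Acot3 in CON-GFP and FPC-GFP, at an SD of 1.83 and 1.16, and the intestinal fatty acid binding protein Fabp2 in FPC-LIPA, at 1.23. Within FPC-LIPA, 18 of the 48 genes were higher in each of FPC-LIPA 36, 37 and 39 than in any of FPC-LIPA 31, 33 and 34, and 6 were lower. The same was true of 23.9% and 23.2% of the 14620 genes tested in FPC-LIPA.

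**Figure D1:**
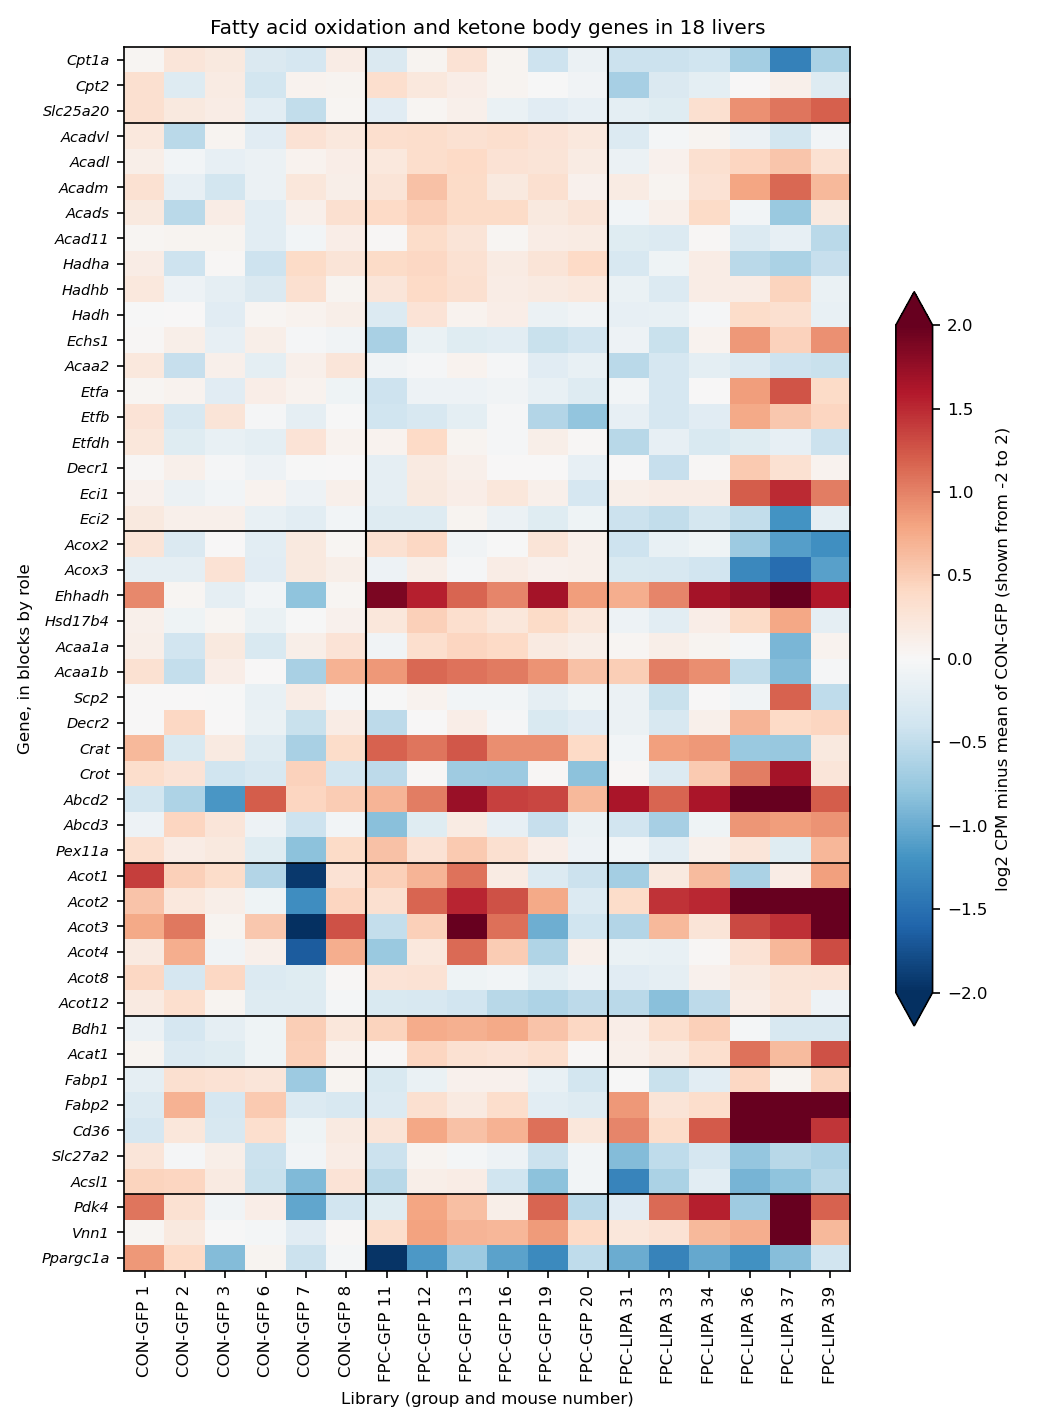
Level of each of the 48 genes (rows, in blocks by role, from mitochondrial entry at the top to regulators at the bottom) in each of the 18 livers (columns), as log2 CPM minus the mean of CON-GFP, shown from -2 (blue) to 2 (red). Ehhadh, Acaa1b, Crat and Abcd2 are red through most of FPC-GFP and Ppargc1a is blue, while Fabp2, Acot2 and Cd36 are darkest in FPC-LIPA 36, 37 and 39.

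The FPC diet was compared with the control diet in the GFP livers, to ask how the diet alone altered the oxidation genes. Of the 13 peroxisomal genes 5 rose in FPC-GFP, led by the bifunctional enzyme Ehhadh at 2.44-fold, and 8 did not pass. None of the 3 genes of the carnitine shuttle and 1 of the 16 of mitochondrial beta oxidation passed. A gene was counted as passing the test at an adjusted p under 0.05 in edgeR's quasi-likelihood test over all genes, and as DE when it also changed by 2-fold or more. Of the 48 genes, 8 rose and 3 fell, which is 22.9% of them, against 23.8% of all 14307 genes tested, of which 12.9% rose and 10.9% fell. Of the 48, Ehhadh and Ppargc1a were DE, as were 7.2% of all genes. The median log2 fold change of the 48 genes was 0.07, against 0.01 over all genes tested. The groups did not overlap for 4 of the 48 genes (8.33%), against 10.6% of all genes tested. Each gene was given a single role, with Crat placed as peroxisomal and Eci2 and Acad11 as mitochondrial beta oxidation. The counts per role depend on that placement. The difference between these roles was not tested, and with library size alone 7 of 13 peroxisomal genes and 7 of 16 of mitochondrial beta oxidation rose. Scaling by library size alone, which moved the median of all genes to 0.21, gave 18 genes higher and 1 lower, against 28.5% of all genes. With DESeq2 in place of edgeR 10 rose and 4 fell (28.3% of all genes), with all 18 libraries in one fit 3 rose and 1 fell (9.04%), and with the libraries of sheet numbers 55 to 68 alone 7 rose and 1 fell (13.6%).

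**Figure D2:**
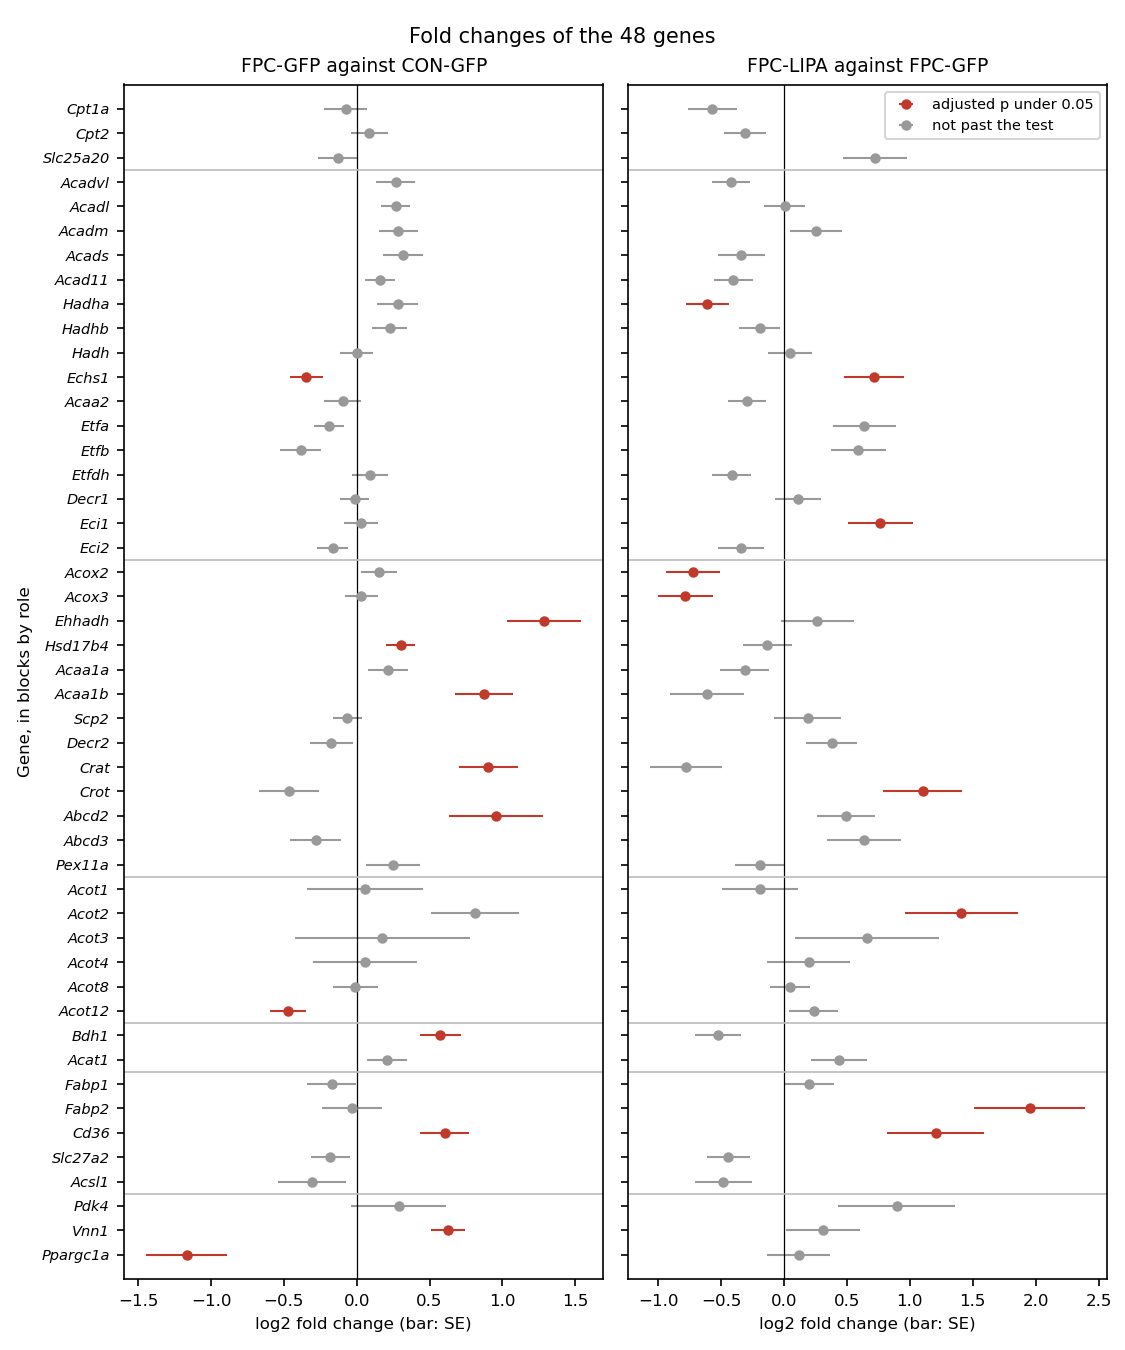
Log2 fold change of each of the 48 genes, in blocks by role, in FPC-GFP against CON-GFP (left) and FPC-LIPA against FPC-GFP (right). Points are edgeR estimates with 6 livers per group, bars are the SE, and red marks an adjusted p under 0.05. On the left the red points to the right of 0 lie mainly in the peroxisomal block, with Ehhadh at 1.29, and on the right the longest bars belong to the genes that vary most within FPC-LIPA, with Fabp2 at 1.95.

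Among the genes placed in the peroxisomal role, 5 of 13 rose in FPC-GFP and none fell. Ehhadh (ENSMUSG00000022853, chr16:21761287-21787807, minus strand, GRCm38) encodes the bifunctional enzyme that hydrates and dehydrogenates straight-chain acyl-CoA. Its lowest, median and highest levels were 207, 360 and 703 CPM in CON-GFP and 642, 937 and 1332 CPM in FPC-GFP. In 5 of the 6 FPC-GFP livers it lay above every CON-GFP liver, and the overlap came from CON-GFP 1, which stood well above the other controls. The log2 fold change was 1.29 (SE 0.26, adjusted p = 0.00306), and it was 1.55 without CON-GFP 1.

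Acaa1b (ENSMUSG00000010651, chr9:119148023-119157093, minus strand) encodes a thiolase that ends each peroxisomal cycle. It lay at 1384, 2283 and 3510 CPM in CON-GFP (lowest, median and highest) and 3256, 4276 and 4825 CPM in FPC-GFP. All but 1 of the FPC-GFP livers exceeded every control, and the log2 fold change was 0.87 (SE 0.20, adjusted p = 0.00667). Its close paralog Acaa1a, at 240 ± 43.2 and 280 ± 36.2 CPM (SD, n = 6), had a log2 fold change of 0.21 (adjusted p = 0.262). Of the 150-base stretches in the transcripts of Acaa1b, 13.3% also occur in Acaa1a, so a part of the reads cannot be assigned to either with certainty.

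Crat (ENSMUSG00000026853, chr2:30400471-30415813, minus strand), the carnitine acetyltransferase that exports acetyl groups, lay at 55.7, 86.4 and 137 CPM in CON-GFP and 115, 175 and 207 CPM in FPC-GFP. It was above every control in 5 of 6 FPC-GFP livers and rose 1.87-fold (log2 fold change 0.90, SE 0.20, adjusted p = 0.00618). Abcd2, a transporter of very long-chain acyl-CoA, was scarce and rose 1.94-fold, from 5.41, 12.8 and 28 CPM to 18.9, 27.4 and 40.1 CPM (log2 fold change 0.96, SE 0.32, adjusted p = 0.0422). The groups overlapped for Abcd2, with 3 FPC-GFP livers above every control. Hsd17b4, the D-bifunctional protein of branched-chain and bile acid side-chain oxidation, rose 1.23-fold with no overlap, from 465 to 551 CPM in CON-GFP and from 597 to 716 CPM in FPC-GFP (log2 fold change 0.30, SE 0.10, adjusted p = 0.0375).

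The other 8 peroxisomal genes did not pass the test, at log2 fold changes from -0.47 for the carnitine octanoyltransferase Crot (adjusted p = 0.111) to 0.25 for the division factor Pex11a (adjusted p = 0.343).

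The sequences before the start sites of 3 of the genes that rose and of the most abundant gene are shown to set their promoters side by side. They come from RefSeq on GRCm38.p6, which has a window for 41 of the 48 genes, and are written 5' to 3' on the gene's strand up to the base before the start. The Ehhadh window is chr16:21787835-21788084 (minus strand), the Acaa1b window chr9:119157094-119157343 (minus strand), the Cd36 window chr5:17835897-17836146 (minus strand) and the Fabp1 window chr6:71199629-71199826 (plus strand). The Cd36 start used by RefSeq lies inside the longer GENCODE gene, and 52 bases nearest the Fabp1 start are left out because GENCODE places them in an exon. Capitals mark the nuclear receptor core motif AGGTCA, a direct repeat of AGGNCA with 1 base between the copies, and the CCAAT box, each on either strand.
Ehhadh: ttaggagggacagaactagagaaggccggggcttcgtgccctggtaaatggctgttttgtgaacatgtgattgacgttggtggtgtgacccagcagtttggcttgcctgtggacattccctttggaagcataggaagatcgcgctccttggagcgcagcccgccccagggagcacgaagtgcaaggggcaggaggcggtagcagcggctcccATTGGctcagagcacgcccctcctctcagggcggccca
Acaa1b: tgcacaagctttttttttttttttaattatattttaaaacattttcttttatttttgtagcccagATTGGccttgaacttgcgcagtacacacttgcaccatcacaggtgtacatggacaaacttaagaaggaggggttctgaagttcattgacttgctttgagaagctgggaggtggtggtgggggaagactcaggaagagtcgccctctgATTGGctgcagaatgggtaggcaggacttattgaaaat
Cd36: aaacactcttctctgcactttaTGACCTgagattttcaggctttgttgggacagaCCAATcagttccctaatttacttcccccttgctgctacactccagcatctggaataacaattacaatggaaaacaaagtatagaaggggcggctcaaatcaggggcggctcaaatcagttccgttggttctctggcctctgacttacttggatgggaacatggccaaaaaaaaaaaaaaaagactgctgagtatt
Fabp1: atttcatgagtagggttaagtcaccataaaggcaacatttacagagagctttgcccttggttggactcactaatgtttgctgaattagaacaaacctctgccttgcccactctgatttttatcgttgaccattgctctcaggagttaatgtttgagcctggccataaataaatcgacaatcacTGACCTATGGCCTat

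In the Fabp1 window the paired motif lies from 67 to 55 bases before the start and includes the core motif. It was the only 1 of the 41 genes with that pair within 250 bases before and 50 bases after its start, against 0.451% of 27025 genes. The core motif AGGTCA was found for 11 of the 41 genes (26.8%), including Cd36, Cpt1a and Acadm, and for 18.1% of all genes. A CCAAT box was present for 21 of the 41 genes, including Ehhadh and Acaa1b at 38 to 34 bases before the start, and for 41.1% of all genes. The GC box GGGCGG, not marked, was found for 28 of 41 genes and 38.2% of all genes. Of the printed genes that rose, Ehhadh and Acaa1b held no core motif in these windows. These are matches of letters, and binding was not measured.

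The carnitine shuttle that admits fatty acids to mitochondria gave no call in FPC-GFP. By edgeR 0 of its 3 genes passed, none had an unadjusted p under 0.05, and DESeq2 also called 0. Cpt1a, which encodes the rate-limiting acyltransferase of mitochondrial entry, lay at 362, 486 and 540 CPM in CON-GFP and 344, 447 and 559 CPM in FPC-GFP. The ranges overlapped almost fully, and the log2 fold change was -0.08 (SE 0.15, adjusted p = 0.73). Slc25a20 and Cpt2 had log2 fold changes of -0.13 and 0.09.

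Of the 16 genes of mitochondrial beta oxidation, 1 fell and 0 rose in FPC-GFP by edgeR, with 5 at an unadjusted p under 0.05. DESeq2 called 1 higher and 2 lower, and with library size alone 7 were higher and 0 lower. Echs1, the short-chain enoyl-CoA hydratase, fell 1.27-fold, from 272, 307 and 334 CPM in CON-GFP to 196, 247 and 281 CPM in FPC-GFP (log2 fold change -0.35, SE 0.11, adjusted p = 0.0349). It lay below every control in 5 of 6 FPC-GFP livers. The dehydrogenases were on the other side of 0. Acadvl, Acadl, Acadm and Acads, which act on very long, long, medium and short chains, had log2 fold changes of 0.27, 0.27, 0.28 and 0.32. None of the 4 passed, and Acadl came nearest (adjusted p = 0.0582), at 217 to 266 CPM in CON-GFP and 271 to 319 CPM in FPC-GFP with no overlap. The electron transfer flavoprotein genes, which pass electrons on from these dehydrogenases, had log2 fold changes of -0.19 for Etfa and -0.39 for Etfb (adjusted p = 0.0576), and 62.9% of the 150-base stretches of Etfb also occur in the annotated gene Gm45233. The most abundant gene of this class per kilobase, Acaa2, had a mean of 1139 ± 199 CPM in CON-GFP, in FPC-GFP of 1072 ± 75.1 CPM (log2 fold change -0.10, adjusted p = 0.599).

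Of the 2 ketone body genes, Bdh1 rose and Acat1 did not pass. Bdh1, the dehydrogenase that interconverts acetoacetate and 3-hydroxybutyrate, rose 1.49-fold from 213, 249 and 376 CPM in CON-GFP to 355, 417 and 451 CPM in FPC-GFP (log2 fold change 0.57, SE 0.14, adjusted p = 0.00984). In 4 of 6 FPC-GFP livers it was above every control. Acat1, the mitochondrial acetoacetyl-CoA thiolase, lay at 656 ± 131 and 761 ± 86.6 CPM (log2 fold change 0.21, adjusted p = 0.283).

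Of the 5 uptake and activation genes, Cd36 rose in FPC-GFP. Cd36 (ENSMUSG00000002944, chr5:17781690-17888801, minus strand) encodes a fatty acid translocase that is also a scavenger receptor of macrophages and endothelium. It lay at 107, 140 and 171 CPM in CON-GFP and 158, 211 and 290 CPM in FPC-GFP. In 4 of 6 FPC-GFP livers it exceeded every control, and it rose 1.52-fold (log2 fold change 0.60, SE 0.17, adjusted p = 0.0179). Markers of leukocytes and macrophages moved with it, since 8 of 10 rose in FPC-GFP, against 12.9% of all genes tested. Their summed level was 175 to 355 CPM among the controls and 523 to 942 CPM among the FPC-GFP livers. Endothelial markers, of which 3 of 8 rose, had summed levels of 191 to 291 and 244 to 294 CPM. Adipocyte markers had summed levels of 44.2 to 79.2 and 163 to 459 CPM. Most of that difference was Cidec, a lipid droplet protein, at 26 ± 11 and 218 ± 95.3 CPM. The defining markers Adipoq, Plin1, Lep and Retn each had a median of 0.122 CPM or less in the controls and 0.0302 CPM or less in FPC-GFP, and Adipoq reached 4.40 CPM in CON-GFP 7. The part of these cells in the level of Cd36 was not tested. The fatty acid binding proteins Fabp1 and Fabp2, the transport protein Slc27a2 and the synthetase Acsl1 did not pass, at log2 fold changes from -0.31 to -0.03. Fabp1 had means of 8180 ± 1977 CPM in the controls and 7305 ± 955 CPM in FPC-GFP.

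The thioesterases, which release free fatty acids from acyl-CoA, gave 1 call in 6. Acot12, a cytosolic acetyl-CoA thioesterase, fell 1.39-fold from 135, 163 and 204 CPM in CON-GFP to 105, 119 and 131 CPM in FPC-GFP, and its groups did not overlap (log2 fold change -0.47, SE 0.12, adjusted p = 0.0129). Acot1, Acot3 and Acot4 varied widely between mice of a group, with SE from 0.36 to 0.60 on the log2 scale. Acot2, a mitochondrial thioesterase, had a log2 fold change of 0.81 (SE 0.30) that did not pass at an adjusted p of 0.0621.

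Of the 3 regulators and other PPARalpha targets, Vnn1 rose and Ppargc1a fell. Vnn1, a pantetheinase that frees the precursor of coenzyme A, rose 1.54-fold from 97.4, 114 and 130 CPM in CON-GFP to 144, 181 and 205 CPM in FPC-GFP (log2 fold change 0.63, SE 0.12, adjusted p = 0.00219). The groups did not overlap. Ppargc1a (ENSMUSG00000029167, chr5:51454250-51567726, minus strand) encodes the coactivator PGC-1alpha, which is induced by fasting in liver. It fell 2.25-fold from 4.66, 8.59 and 15.5 CPM in CON-GFP to 2.18, 3.95 and 5.95 CPM in FPC-GFP, with 4 FPC-GFP livers below every control (log2 fold change -1.17, SE 0.28, adjusted p = 0.00869). Without CON-GFP 1, the highest control, its log2 fold change was -0.95 (SE 0.26, adjusted p = 0.0212). It still passed there but was no longer DE. Pdk4, the kinase that shuts pyruvate out of oxidation, lay at 9.69, 20.4 and 41.7 CPM and at 13.7, 25.9 and 44.6 CPM (log2 fold change 0.29, SE 0.33, adjusted p = 0.54). Its groups overlapped almost fully.

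**Figure D3:**
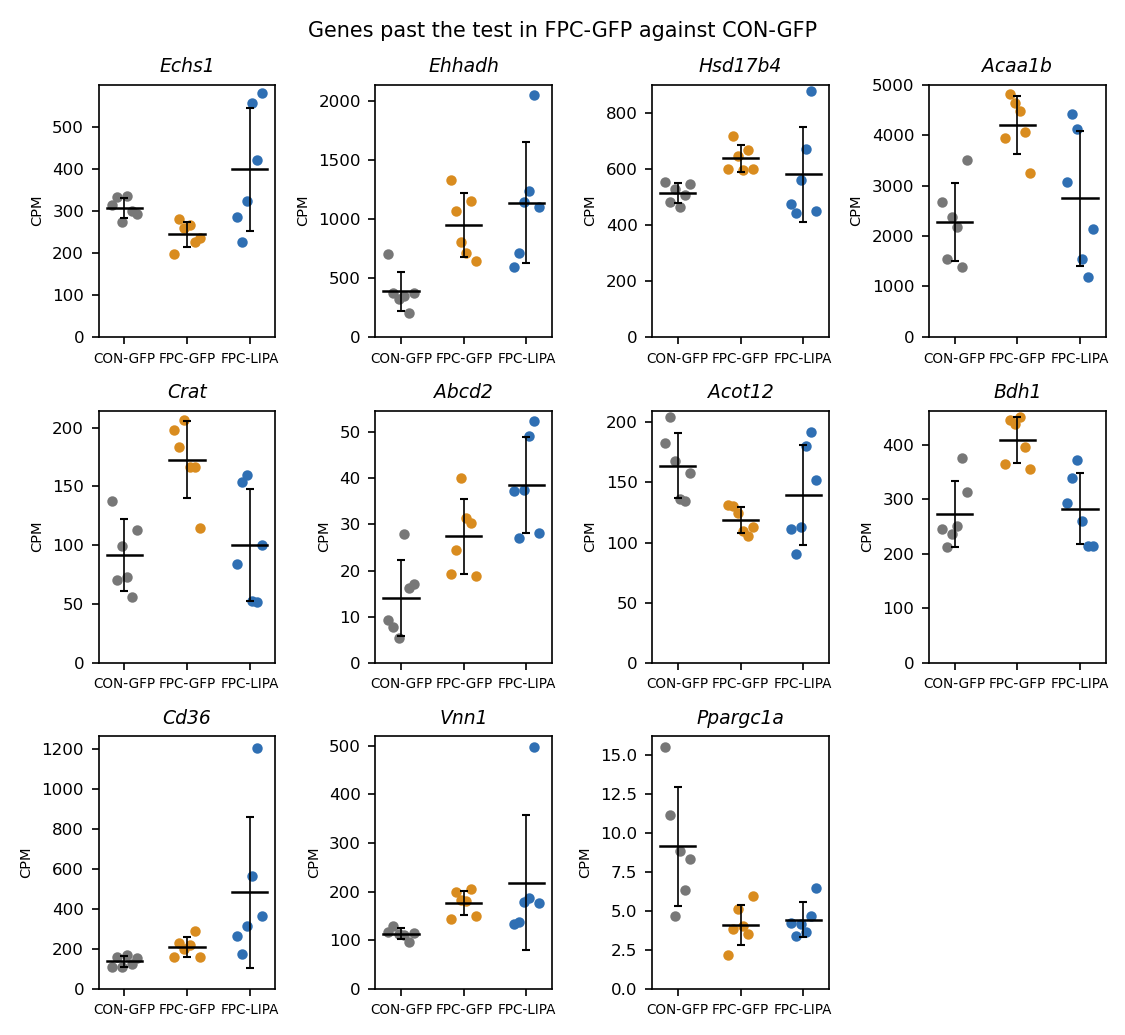
Level in CPM of the 11 genes that passed the test in FPC-GFP against CON-GFP, 1 point per liver, with the mean (line) and SD (bar) of the 6 livers in each group and every axis starting at 0. The FPC-GFP points lie wholly apart from the CON-GFP points for Hsd17b4, Acot12 and Vnn1, and Ehhadh shows the single high control at 703 CPM.

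Across the 21 alternative fits of this comparison, Ehhadh, Crat, Bdh1 and Ppargc1a passed in every fit. Acaa1b, Cd36 and Vnn1 were lost in 1, where all 18 libraries shared a fit. The calls of Echs1 and Hsd17b4 were lost in 12 of the 21 fits each that of Abcd2 in 10 and that of Acot12 in 3.

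FPC-LIPA was then compared with FPC-GFP, to ask how overexpression of the lipase altered the same genes on the FPC diet. With all 6 libraries the fatty acid binding protein Fabp2 rose 3.87-fold, Acot2 2.66-fold, Cd36 2.31-fold and Crot 2.14-fold, and the peroxisomal oxidases Acox2 and Acox3 fell. Of the 48 genes, 6 rose and 3 fell (18.8%), against 21.2% of all 14620 genes tested, of which 14.4% rose and 6.87% fell. DE genes were 4 of the 48 and 11.4% of all. The median log2 fold change was 0.08, against 0.04 over all genes. The groups did not overlap for 5 of the 48 genes (10.4%), against 7.57% of all genes. With FPC-LIPA 31, 33 and 34 alone, edgeR passed 0 of the 48 genes, with 14 at an unadjusted p under 0.05, and 1.22% of 15246 genes. The median of the 48 genes was then -0.17. Leaving out FPC-LIPA 36, 37 or 39 one at a time left 1, 2 and 2 of the 48 genes past the test (7.41%, 9.83% and 8.36% of all genes), and leaving out FPC-LIPA 33 or 34 gave 19 and 16 (38% and 27%). Leaving out any 1 of the 6 FPC-GFP libraries left from 1 to 4 genes (8.78% to 13% of all genes). Without FPC-LIPA 31, 10 genes passed (21.2% of all genes). The number of calls thus changed with the library left out, as did the share over all genes. Whether particular libraries or the smaller groups lay behind this was not tested. The libraries of sheet numbers 55 to 68, which leave out FPC-LIPA 37 and FPC-GFP 20, gave 0 by edgeR, with 16 at an unadjusted p under 0.05 (0.706% of all genes passed). Library size alone gave 2 (9.84% of all genes), DESeq2 20 (30.2%), and all 18 libraries in one fit 19 (31.4%).

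Of the uptake genes, Fabp2 and Cd36 rose in FPC-LIPA. Fabp2 (ENSMUSG00000023057, chr3:122895072-122899506, plus strand) encodes the intestinal fatty acid binding protein, which is typical of enterocytes. It lay at 242, 291 and 374 CPM in FPC-GFP and 349, 1066 and 2208 CPM in FPC-LIPA. In FPC-LIPA 31, 33 and 34 it was at 532, 349 and 374 CPM and in FPC-LIPA 36, 37 and 39 at 1601, 2208 and 1919 CPM, so the group fell into separate sets. The log2 fold change was 1.95 (SE 0.44, adjusted p = 0.0157) over all libraries and 0.48 (SE 0.19, adjusted p = 0.203) with FPC-LIPA 31, 33 and 34 alone. Fabp2 is also 1 of 7 enterocyte markers followed here. Of the others, Sis and Cdx2 were at 0 in every liver, and Lct, Alpi and Vil1 reached at most 0.126, 0.181 and 0.469 CPM. Apoa4, which the liver also makes, lay at 4954 ± 2110 and 3857 ± 611 CPM in FPC-GFP and FPC-LIPA.

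Cd36 lay at 158, 211 and 290 CPM in FPC-GFP and 175, 341 and 1209 CPM in FPC-LIPA, with 4 livers above every FPC-GFP liver. It rose 2.31-fold (log2 fold change 1.2, SE 0.39, adjusted p = 0.04). The highest value was that of FPC-LIPA 37, without which the log2 fold change was 0.68 (adjusted p = 0.0958), and with FPC-LIPA 31, 33 and 34 alone the log2 fold change was 0.28 (SE 0.22, adjusted p = 0.528). Leukocyte and macrophage markers did not all move alike. With all libraries 6 of 10 were higher, against 14.4% of all genes tested. With FPC-LIPA 31, 33 and 34 alone 4 of 10 were higher, against 1.11%. Their summed level was 1027 to 1583 CPM against 523 to 942 CPM in FPC-GFP, of which Lyz2 made up 360 to 698 and 80.3 to 263 CPM. In FPC-LIPA 36, 37 and 39, Cd68, Csf1r and Cd74 lay below every FPC-GFP liver. They were at 6.43 to 9.71, 24.1 to 27.6 and 37.4 to 53.1 CPM there, against FPC-GFP minima of 11.6, 48.3 and 68.5 CPM. Ptprc, the gene of the leukocyte surface phosphatase CD45, was at 8.87 ± 2.37 CPM in FPC-GFP and 28.2 ± 23.9 CPM in FPC-LIPA (log2 fold change 1.67, SE 0.38, adjusted p = 0.0159), and its log2 fold change was 1.14 with FPC-LIPA 31, 33 and 34 alone (adjusted p = 0.0325) and 1.06 without FPC-LIPA 37 (adjusted p = 0.0179). The part of these cells in the level of Cd36 was not tested. Fabp1, Slc27a2 and Acsl1 did not pass, at log2 fold changes of 0.20, -0.44 and -0.48, and of -0.08, -0.39 and -0.42 with FPC-LIPA 31, 33 and 34 alone.

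Among the peroxisomal genes, 1 of 13 rose and 2 fell in FPC-LIPA. Crot (ENSMUSG00000003623, chr5:8966033-8997324, minus strand), which passes medium-chain products of the peroxisome to carnitine, lay at 444, 511 and 796 CPM in FPC-GFP and 643, 1022 and 2478 CPM in FPC-LIPA. It exceeded every FPC-GFP liver in 4 of 6 and rose by 1.10 on the log2 scale (SE 0.31, adjusted p = 0.0283), which was 0.54 (SE 0.23, adjusted p = 0.236) in FPC-LIPA 31, 33 and 34 alone. Acox3 (ENSMUSG00000029098, chr5:35583040-35615352, plus strand), an oxidase of branched-chain acyl-CoA, fell with no overlap from 28.5, 32.6 and 33.7 CPM to 10.6, 18.9 and 24.7 CPM (log2 fold change -0.78, SE 0.22, adjusted p = 0.0257). Acox2 (ENSMUSG00000021751, chr14:8225511-8259353, minus strand), the oxidase of bile acid intermediates and branched chains, fell with almost no gap between the groups, from 238, 285 and 332 CPM to 107, 170 and 237 CPM (log2 fold change -0.72, SE 0.22, adjusted p = 0.033).

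Acox2 and Acox3 were below every FPC-GFP liver in all 6 FPC-LIPA livers. With FPC-LIPA 31, 33 and 34 alone the log2 fold change was -0.38 (SE 0.12, adjusted p = 0.12) for Acox3 and -0.37 (SE 0.15, adjusted p = 0.2) for Acox2. Crat and Acaa1b, which had risen on the FPC diet, had log2 fold changes of -0.78 (SE 0.28, adjusted p = 0.0602) and -0.61 (SE 0.30, adjusted p = 0.136) in FPC-LIPA. These were with FPC-LIPA 31, 33 and 34 alone -0.37 (adjusted p = 0.388) and -0.11 (adjusted p = 0.756). For Acaa1b the lowest values, from 1196 to 2142 CPM, were those of FPC-LIPA 36, 37 and 39, and the other 3 livers lay between 3068 and 4413 CPM. Ehhadh was not called, at 595, 1121 and 2048 CPM in FPC-LIPA (log2 fold change 0.26, SE 0.29, adjusted p = 0.512, and -0.21 with FPC-LIPA 31, 33 and 34 alone).

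**Figure D4:**
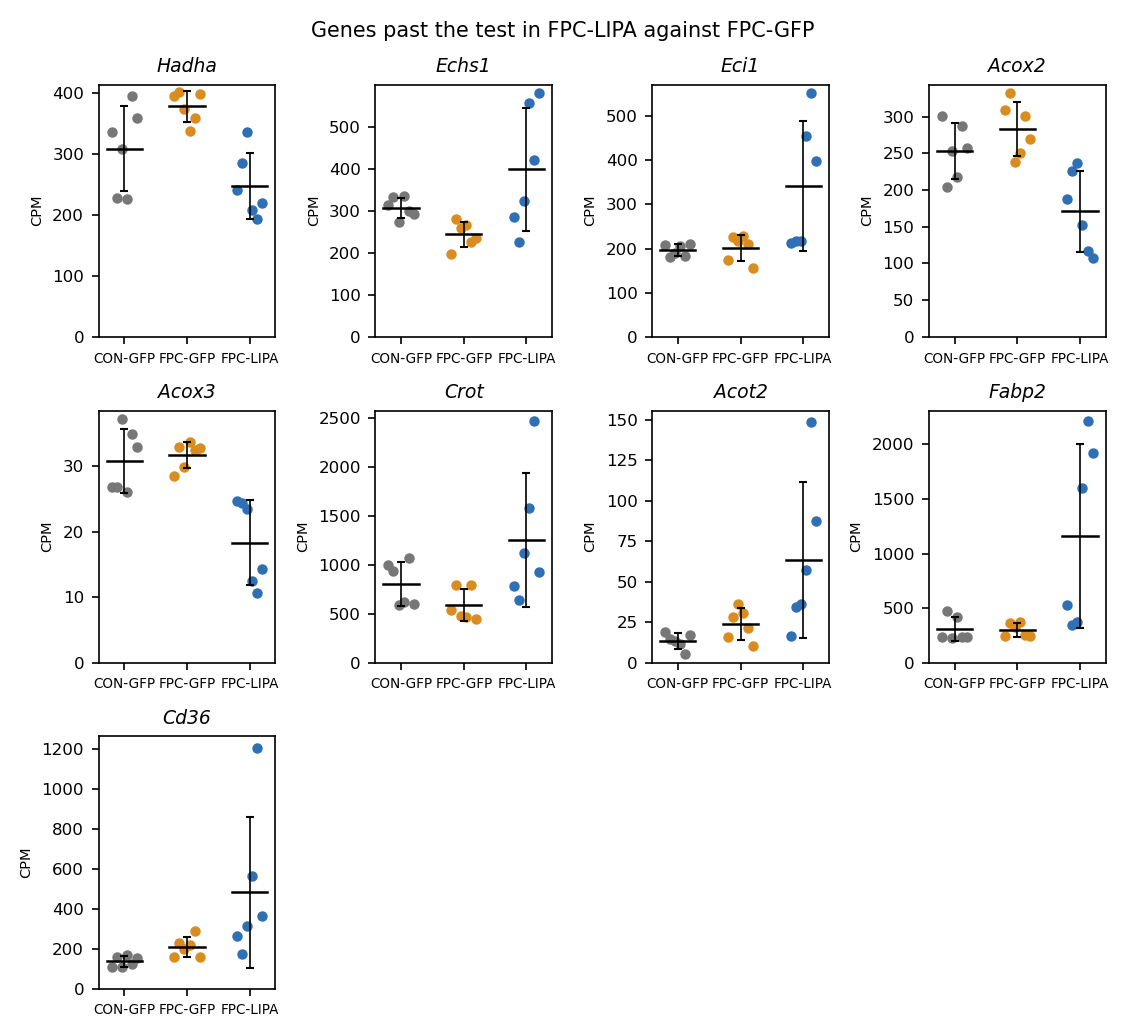
Level in CPM of the 9 genes that passed the test in FPC-LIPA against FPC-GFP, 1 point per liver, with the mean (line) and SD (bar) of the 6 livers in each group and every axis starting at 0. Fabp2 falls into a low set near the FPC-GFP livers and a high set from 1601 to 2208 CPM in FPC-LIPA, while Hadha, Acox2 and Acox3 lie wholly below FPC-GFP.

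Of the 16 genes of mitochondrial beta oxidation, 2 rose and 1 fell in FPC-LIPA. Hadha (ENSMUSG00000025745, chr5:30118304-30155162, minus strand), the alpha subunit of the trifunctional protein that completes the cycle for long chains, fell 1.53-fold from 338, 385 and 402 CPM to 194, 230 and 335 CPM (log2 fold change -0.61, SE 0.17, adjusted p = 0.0283). Its groups did not overlap, and the log2 fold change was -0.39 (SE 0.14, adjusted p = 0.163) with FPC-LIPA 31, 33 and 34 alone. For its partner Hadhb, encoded next to it on the opposite strand, the log2 fold change was -0.19 (SE 0.16, adjusted p = 0.391) over all libraries and -0.32 (adjusted p = 0.227) in those 3.

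Eci1 (ENSMUSG00000024132, chr17:24426641-24439348, plus strand), the isomerase that prepares unsaturated chains, lay at 155, 213 and 229 CPM in FPC-GFP and 212, 308 and 551 CPM in FPC-LIPA. It rose 1.70-fold (log2 fold change 0.77, SE 0.26, adjusted p = 0.0485). FPC-LIPA 31, 33 and 34 lay between 212 and 218 CPM, inside the FPC-GFP range, and gave a log2 fold change of 0.11 (adjusted p = 0.73). Echs1 (ENSMUSG00000025465, chr7:140105710-140116476, minus strand) rose 1.64-fold, from 196, 247 and 281 CPM to 226, 371 and 581 CPM, with 5 livers above every FPC-GFP liver (log2 fold change 0.71, SE 0.24, adjusted p = 0.0442). With FPC-LIPA 31, 33 and 34 alone its log2 fold change was 0.20 (adjusted p = 0.515). Acadvl and Etfdh did not overlap between the groups, each lower in every FPC-LIPA liver, yet did not pass (log2 fold changes -0.43 and -0.42, adjusted p = 0.0548 and 0.064). Their log2 fold changes with FPC-LIPA 31, 33 and 34 alone were -0.37 and -0.44 (adjusted p = 0.137 and 0.133).

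No gene of mitochondrial entry passed in edgeR, while 2 of 3 had an unadjusted p under 0.05 and DESeq2 called 1 higher and 1 lower. Cpt1a lay at 344, 447 and 559 CPM in FPC-GFP and 179, 316 and 345 CPM in FPC-LIPA. It was below every FPC-GFP liver in 5 of 6 FPC-LIPA livers, and its log2 fold change of -0.57 (SE 0.20) had an adjusted p of 0.0516. Slc25a20, the translocase of the same shuttle, was on the other side, at 154, 162 and 193 CPM and 152, 282 and 413 CPM (log2 fold change 0.72, SE 0.25, adjusted p = 0.0536). The log2 fold changes with FPC-LIPA 31, 33 and 34 alone were -0.36 for Cpt1a and 0.08 for Slc25a20.

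Acot2 (ENSMUSG00000021226, chr12:83987861-83993873, plus strand) was the only thioesterase of 6 to rise in FPC-LIPA. It lay at 10.5, 25 and 36.5 CPM in FPC-GFP and 16.4, 46.8 and 149 CPM in FPC-LIPA, with 3 livers above every FPC-GFP liver (log2 fold change 1.41, SE 0.45, adjusted p = 0.0394). With FPC-LIPA 31, 33 and 34 alone the log2 fold change was 0.29 (SE 0.34, adjusted p = 0.691). Acot2 shares 10.2% of its 150-base stretches with Acot1, which lay at 71.8 ± 28.4 CPM in FPC-GFP and 62.7 ± 25.4 CPM in FPC-LIPA (log2 fold change -0.19, adjusted p = 0.658, and -0.22 with FPC-LIPA 31, 33 and 34 alone).

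Neither ketone body gene passed in FPC-LIPA by edgeR, 1 had an unadjusted p under 0.05 and DESeq2 called 1 lower. Bdh1, which had risen on the diet, lay at 355, 417 and 451 CPM in FPC-GFP and 215, 278 and 372 CPM in FPC-LIPA, with 5 livers below every FPC-GFP liver (log2 fold change -0.53, SE 0.18, adjusted p = 0.0515). Its log2 fold change with FPC-LIPA 31, 33 and 34 alone was -0.28 (adjusted p = 0.305). For Acat1 the log2 fold change was 0.43 (SE 0.22, adjusted p = 0.157), and it was -0.02 in FPC-LIPA 31, 33 and 34 alone. Vnn1, Pdk4 and Ppargc1a gave 0 calls by edgeR or by DESeq2, with 0 at an unadjusted p under 0.05 by edgeR. Ppargc1a lay within the range of CON-GFP and FPC-GFP together, at 3.38, 4.21 and 6.51 CPM (log2 fold change 0.12, SE 0.25, adjusted p = 0.746, and -0.05 with FPC-LIPA 31, 33 and 34 alone).

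**Figure D5:**
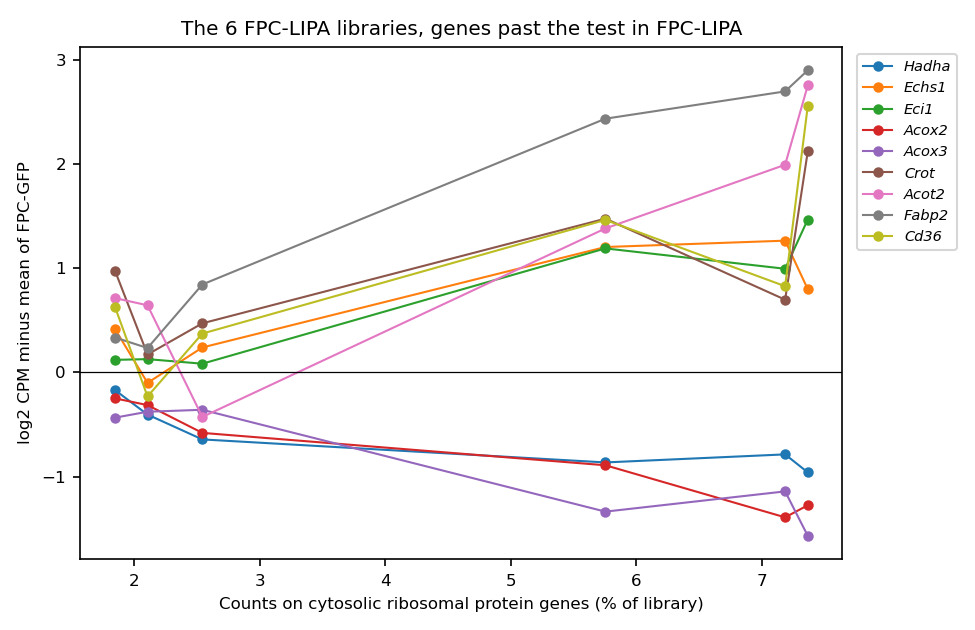
Log2 CPM of the 9 genes that passed in FPC-LIPA against FPC-GFP, minus the mean of FPC-GFP, in each of the 6 FPC-LIPA livers, placed by the percent of counts on cytosolic ribosomal protein genes. The 3 livers from 1.85% to 2.54% lie nearer to 0 for most genes than the 3 from 5.75% to 7.37%, where Fabp2 reaches 2.43 to 2.90. Lines join the same gene and stand for no time course.

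Gene length moved with both comparisons, in opposite directions. Over 14604 genes the log2 fold change in FPC-LIPA had a Spearman rho of -0.30 with the length of the longest coding transcript, and over the 48 genes it was -0.20. In FPC-GFP against CON-GFP the rho was 0.15 over 14292 genes and 0.17 over the 48. These are descriptions across genes of the same libraries. When each library's trend on length was removed, 10 of the 48 genes passed in FPC-LIPA, 4 higher and 6 lower, in place of 6 and 3 (17.5% of all genes). Crot (1.19), Acot2 (1.44), Fabp2 (1.29), Cd36 (1.34), Hadha (-0.51), Acox2 (-0.68) and Acox3 (-0.70) kept their calls at these log2 fold changes. Echs1 (0.55, adjusted p = 0.0705) and Eci1 (0.35, adjusted p = 0.202) lost theirs, and Acaa2 (-0.45, adjusted p = 0.0467) and Acadvl (-0.44, adjusted p = 0.0423) were called lower. Fabp1, whose transcript of 553 bases is short, was called lower too and went from a log2 fold change of 0.20 to -0.61 (adjusted p = 0.0384). Its direction in FPC-LIPA therefore depended on this choice.

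Both comparisons use the 6 FPC-GFP libraries, so their results are not independent and are set side by side. Of the 48 genes, 18 passed in at least 1 comparison and 2 in both. Cd36 rose in each, by 1.52-fold and 2.31-fold. Echs1 had log2 fold changes of -0.35 and 0.71, and its mean of 307 ± 23.9 CPM in CON-GFP lay between 243 ± 30.8 CPM in FPC-GFP and 399 ± 146 CPM in FPC-LIPA. The means of Ehhadh and Abcd2 in FPC-LIPA were 1138 ± 514 and 38.5 ± 10.5 CPM, and those of Crat and Bdh1 100.3 ± 47.6 and 283 ± 64.8 CPM. Crat lay between 84.2 and 160 CPM in FPC-LIPA 31, 33 and 34 and between 51.6 and 100 CPM in the others, and Bdh1 between 294 and 372 CPM and between 215 and 261 CPM. None of these 4 passed in FPC-LIPA against FPC-GFP.

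A further 102 genes of the same pathways that are not among the 48 were followed from lists of other oxidation, ketone body, uptake, PPARalpha and peroxisome genes. In FPC-GFP against CON-GFP 13 of 94 tested rose and 14 fell, against 12.9% and 10.9% of all genes. In FPC-LIPA against FPC-GFP 7 of 95 rose and 12 fell, against 14.4% and 6.87% of all genes. EdgeR passed 0 with FPC-LIPA 31, 33 and 34 alone, with 22 at an unadjusted p under 0.05, against 1.22% of all genes. These shares are the background of each list that follows.

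Ppara, the gene of PPARalpha, passed in neither comparison. It lay at 83.4 ± 13.3, 84 ± 12.9 and 96.4 ± 32.2 CPM in CON-GFP, FPC-GFP and FPC-LIPA, with log2 fold changes of 0.00 (SE 0.13, adjusted p = 0.998) and 0.20 (SE 0.21, adjusted p = 0.494), the latter -0.23 with FPC-LIPA 31, 33 and 34 alone. Of 23 other targets tested 6 rose and 2 fell on the diet, and 0 rose and 1 fell in FPC-LIPA. The largest call was Aqp7, a glycerol channel, at a log2 fold change of 2.05 on the diet (adjusted p = 0.00761). Aqp7 was scarce, at 0.122 to 1.18 CPM in CON-GFP and 0.821 to 4.37 CPM in FPC-GFP, and the groups overlapped. The fatty acid omega-hydroxylases Cyp4a10 and Cyp4a14 did not pass (log2 fold changes -0.64 and 0.21, adjusted p = 0.151 and 0.71). Fgf21, a fasting hormone, rose from 9.64 ± 4.1 to 25.4 ± 8.68 CPM (log2 fold change 1.38, SE 0.27, adjusted p = 0.00283). In FPC-LIPA the target that fell was Gpd1, a dehydrogenase of glycerol 3-phosphate, at a log2 fold change of -0.96 (adjusted p = 0.0343), and at -0.47 with FPC-LIPA 31, 33 and 34 alone.

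Of the 17 genes of PPARalpha and its regulators, 1 rose and 4 fell on the diet, the largest change being that of Lpin1, a phosphatase and coactivator, at -2.24 (SE 0.55, adjusted p = 0.0102). Lpin1 reached 714 CPM in CON-GFP 1 and lay between 48.1 and 306 CPM in the other controls, with FPC-GFP between 31 and 116 CPM, so the groups overlapped. Without CON-GFP 1 its log2 fold change was -1.54 (SE 0.43, adjusted p = 0.025). In FPC-LIPA 4 fell, among them the hepatocyte factor Hnf4a at -0.98 (SE 0.32, adjusted p = 0.0425), which was -0.46 (adjusted p = 0.225) with FPC-LIPA 31, 33 and 34 alone. Of the 14 peroxisome biogenesis genes 1 fell on the diet, and 1 rose and 4 fell in FPC-LIPA. Pex2, a peroxisomal import factor, was the largest in each, at log2 fold changes of -0.60 (adjusted p = 0.00891) and 1.18 (adjusted p = 0.0242), the latter 0.19 with FPC-LIPA 31, 33 and 34 alone.

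The remaining lists gave calls in both directions. Of 8 other ketone body genes tested, Bdh2, a cytosolic dehydrogenase, fell on the diet at a log2 fold change of -1.25 (adjusted p = 0.000623). In FPC-LIPA Oxct1, which lets tissues burn ketone bodies, lay between 2.94 and 6.34 CPM in FPC-GFP and rose to between 7.55 and 12.2 CPM with no overlap (log2 fold change 1.15, SE 0.22, adjusted p = 0.011), and it was 0.99 on that scale in FPC-LIPA 31, 33 and 34 alone (adjusted p = 0.0651). Aacs, which activates acetoacetate for lipid synthesis, fell by 1.26 on the log2 scale (adjusted p = 0.036), and was at -1.11 in those libraries (adjusted p = 0.166). Of 22 other beta oxidation genes 2 rose and 5 fell on the diet and 2 rose in FPC-LIPA, led by the thioesterases Acot9 at 1.03 (adjusted p = 0.00264) and Acot13 at 1.62 (adjusted p = 0.0205, and 0.30 with FPC-LIPA 31, 33 and 34 alone). Of the other uptake and activation genes, 5 of 15 rose and 1 fell on the diet, and 3 of 16 rose and 2 fell in FPC-LIPA. Fabp7, a fatty acid binding protein, had the largest call in each, at log2 fold changes of 1.13 (adjusted p = 0.0032) and 1.55 (adjusted p = 0.011), the latter 1.07 with FPC-LIPA 31, 33 and 34 alone (adjusted p = 0.0792).

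With each of the 12 libraries left out in turn, the calls named from these lists on the diet were kept. In FPC-LIPA those of Oxct1 and Fabp7 were kept, whereas Hnf4a lost its call in 10 of the 12 fits, Gpd1 in 8, Pex2 in 7, Aacs in 6 and Acot13 in 1.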

How the data were processed

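RNA from 18 livers was sequenced, with 1 library per mouse, and the authors deposited raw read counts per gene without normalization. Per the study's methods, paired reads were trimmed with Trimmomatic, mapped to GRCm38 with HISAT2 2.1.0 and counted with featureCounts (Subread). A stranded and an unstranded kit are both named without saying which library used which. Reads of genes that overlap on opposite strands therefore cannot be told apart (Acadvl with Dvl2). Etfb and Etfbl overlap on the same strand, so neither kit would separate them. Etfbl and the Gm45233 named above may be the same gene under different names, which was not checked. Of the 23 columns of the table, 18 matched the groups and 5 for other vectors were not used.

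Each comparison used its own 12 libraries. Genes were kept with filterByExpr, scaled by TMM and tested with edgeR 4.0.16 (quasi-likelihood test, R 4.3.3), with Benjamini-Hochberg adjustment over all genes tested. The SE is the absolute log2 fold change divided by the square root of F. CPM used TMM factors over all 18 libraries, and log2 CPM a prior count of 2. Lengths are those of the longest protein-coding transcript in GENCODE M21. The replicates are separate mice, so errors are SD or SE over mice. The fits were tested on simulated data with known changes. Of 100 genes changed 2-fold, 71 were recovered in the diet comparison and 31 in FPC-LIPA against FPC-GFP. Of 100 changed 4-fold, 94 and 87 were recovered, with 6 and 7 false calls. Most simulated 2-fold changes were thus missed in FPC-LIPA.

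The genes and lists were chosen with earlier results of these data known. Members were named in full if they passed with a fold change of 1.5 or more, led their role in level per kilobase or were 1 of Cpt1a, Cd36, Pdk4, Ppargc1a, Bdh1 and Ehhadh. Other genes named were Lipa, Ptprc, Ppara, Fgf21, Cyp4a10, Cyp4a14 and the largest call of each list, and further genes of this rule are not reported here. Calls and near calls outside this rule were named after their values were seen. Alternatives were other scalings, the DESeq2 1.42.0 Wald test, other filters, 1 fit over the 18 libraries, a restriction to sheet numbers 55 to 68, removal of the length trend and leaving out each library. The fit with FPC-LIPA 31, 33 and 34 alone, and leaving out libraries for genes outside the 48, were added after seeing the data. Promoter windows are those of RefSeq on GRCm38.p6. Figures were drawn with matplotlib 3.10.9.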

Additional observations from a re-analysis of the deposited data

Results flagged for a closer look

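In 144 groups of 6 livers, the highest or lowest liver of a gene stood apart from the rest of its group in 7, by Dixon's ratio at its 95% critical value. Chance flags about 1 in 20 groups, and 7 of 144 is 4.86%. FPC-LIPA 37 gave 4 of the 7. There Cpt1a was low at 179 CPM against 285 to 345 CPM in the other FPC-LIPA livers, and Acaa1a was low at 126 CPM against 233 to 256 CPM. In the same liver Scp2 was high at 8094 CPM against 2533 to 3586 CPM, and Vnn1 was high at 498 CPM against 133 to 187 CPM. Acot3 was high in FPC-LIPA 39 at 239 CPM, against 22.9 to 94.1 CPM. Etfdh was high in FPC-GFP 12 at 405 CPM, against 302 to 333 CPM. Ehhadh was high in CON-GFP 1 at 703 CPM, against 207 to 373 CPM in the other controls, and its rise on the FPC diet was larger without that liver.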

How the results depend on the processing

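On the FPC diet, 11 of the 48 genes passed the test, and the number lay between 8 and 14 under the other scalings by size factors, the DESeq2 Wald test, both filters, the sample sheet numbers 55 to 68, the length trend and the omission of any 1 library (8 to 11). It was 19 with library size alone, where the median log2 fold change was 0.29, and 4 with all 18 libraries in one fit. The median lay between 0.03 and 0.15 with 1 library left out.

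In FPC-LIPA, 9 genes passed, and from 7 to 10 under the other scalings by size factors, the filters and the length trend. The number was 2 with library size alone, 20 with the DESeq2 Wald test, 19 with all 18 libraries in one fit, 0 with the sample sheet numbers 55 to 68 (16 at an unadjusted p under 0.05), and 0 with FPC-LIPA 31, 33 and 34 alone, where the median was -0.17. Leaving out 1 library gave from 1 to 19 genes, with 1 to 4 without any FPC-GFP library, and medians from -0.05 to 0.14. Fabp2 lost its call in 2 of 22 alternatives, Acox3 in 7, Crot in 8, Hadha in 10, Cd36, Acot2 and Acox2 in 12 each, and Echs1 and Eci1 in 14 each.

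No gene called in a comparison changed direction in it. Of the named genes not called, direction changed on the diet with library size alone for Cpt1a (0.13), Slc25a20 (0.083), Acaa2 (0.095), Fabp1 (0.038) and Fabp2 (0.17), with sheet numbers 55 to 68 for Cpt1a (0.011), Slc25a20 (0.021), Acox3 (-0.064) and Fabp2 (0.15), and with the length trend removed for Acox3 (-0.050), Fabp1 (0.13) and Fabp2 (0.14). In FPC-LIPA it changed with library size alone for Ppargc1a (-0.044), with sheet numbers 55 to 68 for Ehhadh (-0.089) and Vnn1 (-0.17), with the length trend removed for Fabp1 (-0.61), and with FPC-LIPA 31, 33 and 34 alone for Ehhadh (-0.21), Acot12 (-0.18), Acat1 (-0.020), Fabp1 (-0.084), Vnn1 (-0.23) and Ppargc1a (-0.051). With 1 library left out, direction changed on the diet for Eci1 (-0.012 to 0.093), Acox3 (-0.015 to 0.091) and Fabp2 (-0.10 to 0.14) and in FPC-LIPA for Vnn1 (-0.13 to 0.42) and Ppargc1a (-0.036 to 0.24). The cause was not tested.

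No paired analysis was possible because the groups share no mouse numbers.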
